A study of Mus musculus with 90 samples.

Results

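Tumour cells display surface and secreted ligands that bind receptors on T cells, NK cells and macrophages, and 10 genes for such ligands were followed here in cells exposed to IFNγ. They are Cd274, Pdcd1lg2, Cd276, Pvr, Nectin2, Cd47, Lgals9, Tnfrsf14, Icam1 and Ceacam1. They were taken as the rows of the count table whose Ensembl identifier maps to these symbols, which gave 10 of 53697 rows, with 1 row for each symbol. Messenger RNA was measured by a digital 3′-end counting method, in which only the end of each transcript is sequenced, in YUMM2.1, a mouse melanoma line, and CT26, a mouse colon carcinoma line. Each line had 15 groups of 3 replicate samples, 90 samples in all. At 0 weeks there was a control group and 2 groups of naive cells that had received 50 IU/mL IFNγ for 2 h or 24 h. At 1, 2 and 3 weeks there was a control group, a group kept in 50 IU/mL IFNγ throughout and collected without rechallenge (0 h), and 2 groups of such cells that were given fresh IFNγ and collected 2 h or 24 h later. Control cultures are labelled as given BSA (0 IU/mL IFNγ), while the study's methods describe them only as untreated. All control groups are labelled 0 h, so any effect of handling when fresh IFNγ was added was not tested. Each group was a culture of 1 of these established lines. The labels speak of triplicate experiments, and the study states in general terms that replicates were independent. How the cultures of this time course were split is not described, so p-values here measure the spread between these samples.

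IFNγ signals through its receptor and the kinases JAK1 and JAK2, and genes respond through DNA elements called GAS and through IRF elements, which the induced transcription factor IRF1 binds. Cd274 encodes PD-L1, the ligand that restrains T cells through PD-1 and the best known checkpoint ligand under the control of IFNγ in tumours. The other ligands act on different receptors: PD-L2 (Pdcd1lg2) on PD-1, CD155 (Pvr) and CD112 (Nectin2) on TIGIT and DNAM-1, CD47 on the macrophage receptor SIRPα, galectin-9 (Lgals9) on TIM-3, HVEM (Tnfrsf14) on BTLA, ICAM-1 (Icam1) on the integrin LFA-1, and CEACAM1 (Ceacam1) on itself and on TIM-3. The receptor of B7-H3 (Cd276) is not firmly established.

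RefSeq promoter sequences of build GRCm38.p6 were matched for 9 of the 10 genes and not for Pvr. In the 250 bases before each start, both strands were searched for a GAS motif, TTCNNNGAA, and an IRF motif, GAAA and GAAA parted by any 2 bases (matches of both may overlap). Of 32851 mouse promoters in the same table, 7.02% held the GAS motif, 2.98% the IRF motif and 9.66% either. Icam1 held 1 GAS match, with its first base at position -42 from the start. Lgals9 and Tnfrsf14 each held 1 IRF match, at positions -55 and -64. The windows of Cd274, Pdcd1lg2, Cd276, Nectin2, Cd47 and Ceacam1 held neither motif in these letters. Positions count from the RefSeq start. For Cd276, Icam1 and Ceacam1 a short stretch after that start was not found in the annotated transcripts of the gene, so these starts are less certain. A match is a description and not a binding site. The stretches of Cd274 (chr19:29367318-29367437, + strand), Lgals9 (chr11:78984947-78985044, - strand) and Icam1 (chr9:21015820-21015939, + strand) are shown 5′ to 3′, the first 2 because these ligands passed a test against IFNγ controls and the third because it holds the GAS match. Capitals mark the matched motif, and the Lgals9 stretch ends where the first exon is annotated.
Cd274: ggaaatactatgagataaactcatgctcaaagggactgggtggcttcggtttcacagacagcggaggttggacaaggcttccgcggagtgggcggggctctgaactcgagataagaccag
Lgals9: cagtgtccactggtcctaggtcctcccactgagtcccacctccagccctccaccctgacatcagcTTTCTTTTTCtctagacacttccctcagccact
Icam1: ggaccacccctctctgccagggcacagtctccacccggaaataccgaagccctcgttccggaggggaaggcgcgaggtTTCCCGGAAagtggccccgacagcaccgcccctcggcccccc

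YUMM2.1 libraries held 274719 to 3161276 counts (median 1403265) and CT26 libraries 295157 to 2205285 (median 1318011). In 3 samples, all collected without rechallenge, the total was under 25% of the median of the line: replicate 3 of 3 weeks of IFNγ in YUMM2.1, and replicate 3 of 1 week and of 3 weeks in CT26. Levels are given in CPM, the count of a gene scaled to a common library size. Irf1 was used to check the labels of IFNγ against control, and not those of rechallenge. It ran from 7.27 to 21.3 CPM in the 12 YUMM2.1 controls and from 29.7 to 269 CPM in the 33 samples given IFNγ. In CT26 it ran from 4.04 to 14.6 CPM in controls and from 22.1 to 119 CPM with IFNγ. Of the lineage markers, Sox10 averaged 28.4 CPM in YUMM2.1 and 0 in CT26, and Krt20 averaged 0.308 and 55.9 CPM. Other melanocyte markers were higher in CT26, where Mitf, Tyr and Dct averaged 2.67, 0.416 and 2.58 CPM, against 1.98, 0.248 and 0.902 CPM in YUMM2.1. The 7 melanocyte markers summed to between 16.3 and 58.5 CPM in YUMM2.1 and between 0.673 and 16.6 CPM in CT26, and the 8 colon epithelial markers to between 42.3 and 123 CPM in CT26. Other defining markers were absent: Tyrp1 was at 0 in YUMM2.1, as were Krt19, Epcam, Cdh1 and Vil1 in CT26. Among the 9 leukocyte markers, Cd3e, Cd8a and Itgax were at 0 in all 90 samples, and the list summed to between 2.11 and 24.8 CPM in YUMM2.1 and between 1.35 and 15.4 CPM in CT26. Of 4 fibroblast markers, summed levels ran from 4.07 to 44.3 CPM in YUMM2.1 and from 33.7 to 152 CPM in CT26. Of 3 endothelial markers, Pecam1 averaged 351 and 286 CPM, whereas Cdh5 and Kdr averaged 0.0326 and 0.0105 CPM in YUMM2.1 and 0 in CT26.

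Depth limited which ligands could be compared. edgeR's filterByExpr, which keeps genes with enough counts in at least as many samples as 1 group holds, left 9589 genes in YUMM2.1 and 8516 in CT26. In YUMM2.1, 6 of the 10 ligands passed it (Cd274, Cd276, Pvr, Cd47, Lgals9 and Ceacam1). In CT26, 4 of the 10 passed (Cd274, Pvr, Cd47 and Lgals9). Cd274 passed in both lines through its IFNγ groups only. No control held more than 7 of its counts in YUMM2.1 or 2 in CT26. Its calls against controls thus rest on a gene kept for the groups where it was high. The limit that a count of 0 allows, 3 counts, corresponded to between 0.949 and 10.9 CPM in a YUMM2.1 sample and between 1.36 and 10.2 CPM in a CT26 sample. Such limits and the counting intervals given below cover counting error only.

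**Figure D1:**
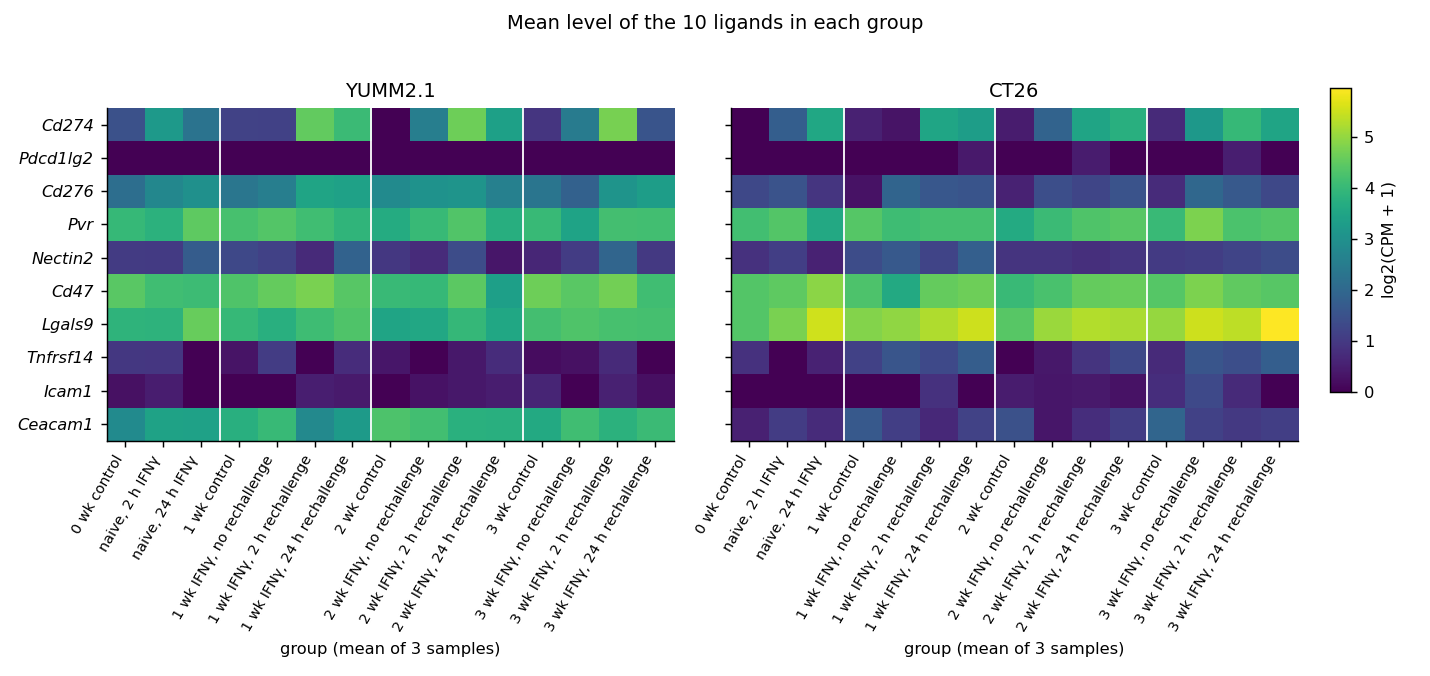
Mean level of each of the 10 ligands (rows) in each of the 15 groups (columns) of YUMM2.1 and CT26, as log2(CPM + 1), to be read along a row, since levels of different genes are not scaled by length. The Cd274 row is dark in all controls of both lines and brightest in YUMM2.1 2 h after rechallenge, where group means were between 22.2 and 25.7 CPM, and Pdcd1lg2 and Icam1 stay dark throughout.

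Cd274 (ENSMUSG00000016496.7, PD-L1; GRCm38 chromosome 19, 29367455 to 29388095, + strand) was scarce in all control cultures of both lines, and it passed the test in 5 of the 11 IFNγ comparisons in YUMM2.1 and 4 of the 11 in CT26, each time higher. The 12 YUMM2.1 controls held 24 Cd274 counts together, or 1.04 CPM (95% Poisson interval 0.665 to 1.54), and the 33 samples given IFNγ held 517 counts, or 11.2 CPM (10.2 to 12.2). In CT26 the same totals were 6 counts, or 0.346 CPM (0.127 to 0.753), and 324 counts, or 8.33 CPM (7.45 to 9.29). The largest count of Cd274 in any sample was 47. In cultures, more RNA per cell and more cells with the transcript cannot be told apart. An antisense gene, AC119228.1, overlaps Cd274 on the other strand, as other genes do for Pdcd1lg2, Pvr, Nectin2, Cd276, Icam1 and Ceacam1. Whether counting used the strand is not given in the sources used here, so reads of such pairs may not be told apart.

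In naive YUMM2.1 cells, Cd274 stood at 1.08, 2.42 and 1.92 CPM in the 0-week controls and at 7.94, 7.98 and 8.83 CPM after 2 h of IFNγ. All 3 treated samples lay above all 3 controls, and the log2 fold change was 2.24 ± 0.58 (approximate SE, n = 3 each), but it missed the threshold (adjusted p = 0.132, quasi-likelihood test of edgeR). After 24 h of IFNγ the samples stood at 6.69, 1.02 and 3.79 CPM and overlapped the controls, with a log2 fold change of 1.14 ± 0.67 (adjusted p = 0.797 from edgeR's test). At 2 h, edgeR and DESeq2 each called 0 of the 6 tested ligands, and 1, Cd274, had an unadjusted p below 0.05. At 24 h both tools again called 0, and 1, Lgals9, had an unadjusted p below 0.05. Among all genes, 0.24% passed at 2 h and 0.886% at 24 h.

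For CT26, Cd274 passed the test in naive cells at 24 h. The 3 control samples had no Cd274 count, which allows a level of up to 0.634 CPM in the group (3 counts over the 3 samples). After 2 h of IFNγ the samples held 1, 2 and 8 counts, or 0.64, 1.46 and 5.29 CPM, and their pooled level was 3.91-fold that limit. Such multiples of a limit, here and below, do not cover counting error in the group with counts. This missed the threshold (adjusted p = 0.272 from edgeR's test), and edgeR and DESeq2 called 0 of the 4 tested ligands, with 1 below an unadjusted p of 0.05, against 0.235% of all genes. After 24 h the samples held 10, 4 and 8 counts, or 19.6, 6.73 and 5.89 CPM. The pooled level of Cd274 was thus 14.1-fold the control limit, with 3 of 3 samples above the controls (adjusted p = 5.32e-05 from edgeR's test). With Lgals9, 2 of the 4 tested ligands rose at 24 h, where 2.04% of all genes passed. When the model was fitted to these groups alone, Cd274 did not pass the filter on low counts and had no test.

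Continuous IFNγ without rechallenge left Cd274 near the control level at 1 week in both lines. In YUMM2.1 the 1-week controls stood at 0, 2.76 and 1.01 CPM and the IFNγ samples at 1.51, 2.2 and 0 CPM (log2 fold change 0.30 ± 0.72, adjusted p = 0.986 from edgeR's test). In CT26 the controls held 1, 0 and 1 counts and the IFNγ samples 1, 0 and 0, a ratio of 0.938 with a 95% counting interval of 0.0159 to 18. At 1 week, edgeR and DESeq2 called 0 of the 6 ligands in YUMM2.1 and 0 of the 4 in CT26, none had an unadjusted p below 0.05, and 0.73% and 0.728% of all genes passed.

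At 2 weeks of IFNγ, Cd274 was higher in YUMM2.1. The 2-week controls held no count, which allows up to 0.881 CPM, and the IFNγ samples held 7, 8 and 6 counts, or 4.54, 7.13 and 2.89 CPM. Their pooled level was 5.03-fold that limit (adjusted p = 0.0047 from edgeR's test), and 1 of 6 tested ligands rose against 1.12% of all genes. The call rested on all 3 samples: without replicate 1, 2 or 3 of every group the adjusted p was 0.139, 0.123 or 0.0656, and Cd274 failed the filter when these groups were fitted alone. In CT26 the controls held 0, 1 and 0 counts and the IFNγ samples 5, 1 and 5, a ratio of 9.20 with a counting interval of 1.34 to 396. It did not pass (adjusted p = 0.302 from edgeR's test). edgeR and DESeq2 called 0 of the 4 ligands there, with 2, Cd274 and Lgals9, below an unadjusted p of 0.05, against 1.62% of all genes.

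At 3 weeks the call was made in CT26 and not in YUMM2.1. In CT26 the controls stood at 0, 1.46 and 0.487 CPM (0, 2 and 1 counts) and the IFNγ samples at 13.0, 7.82 and 3.31 CPM (15, 7 and 1 counts). All 3 treated samples lay above the controls, the ratio was 15.2 (counting interval 4.59 to 79.0) and the adjusted p was 0.0017 from edgeR's test. In this comparison 7.28% of all genes passed, and 1 of the 4 tested ligands rose. The lowest of these samples was the shallow replicate 3. The call was kept without the shallow libraries (adjusted p = 0.00123) but lost without replicate 1 (adjusted p = 0.148). In YUMM2.1 the 3-week controls stood at 0.881, 1.16 and 0.684 CPM and the IFNγ samples at 4.85, 1.99 and 6.96 CPM, the last from 2 counts in the shallow replicate 3. The groups did not overlap, but the log2 fold change of 2.08 ± 0.69 did not pass (adjusted p = 0.185 from edgeR's test). edgeR and DESeq2 called 0 of the 6 ligands, with 1, Cd274, below an unadjusted p of 0.05, against 0.97% of all genes.

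**Figure D2:**
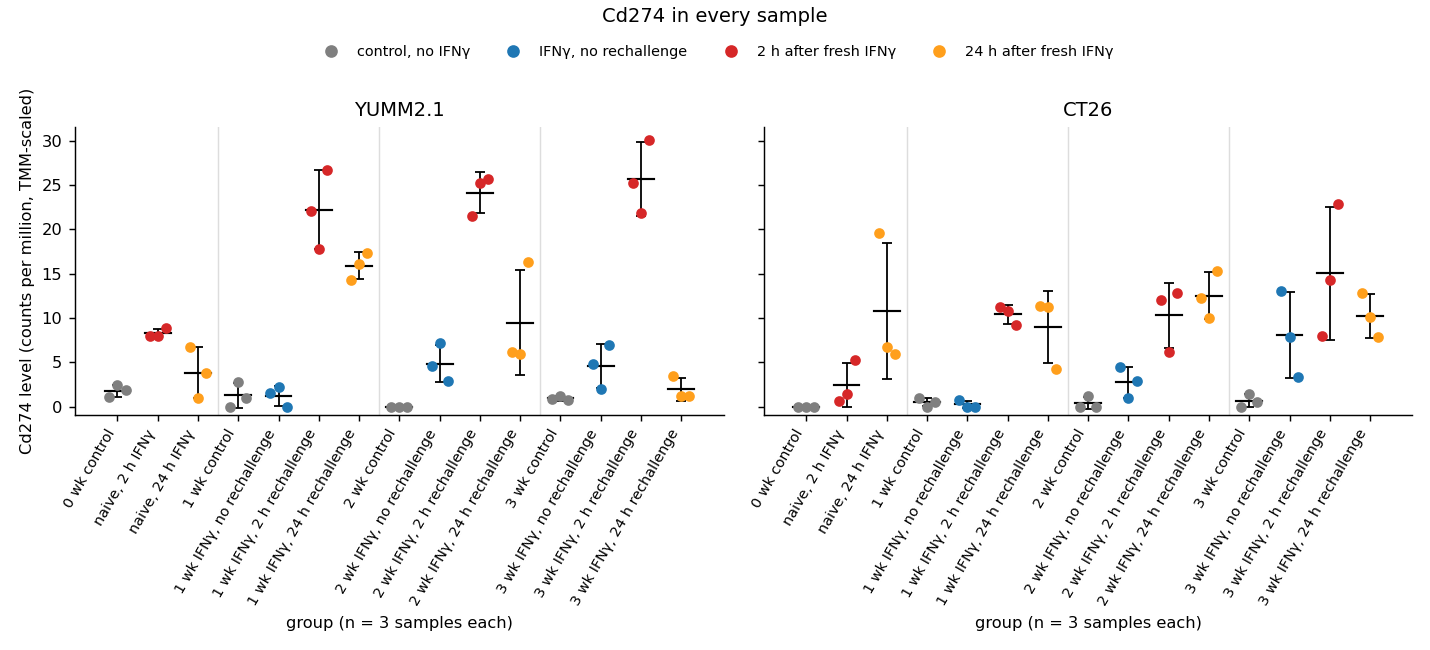
Cd274 level in CPM (TMM-scaled) in each of the 45 samples per line, by group; points are samples, horizontal lines are means and error bars are SD (n = 3). The red points, 2 h after rechallenge, reach 17.8 to 30.1 CPM at 1, 2 and 3 weeks in YUMM2.1, whereas the orange points, 24 h after rechallenge, are at 14.3 to 17.3 CPM at 1 week and at 1.14 to 3.48 CPM at 3 weeks. In CT26 the red and orange points overlap after 1, 2 and 3 weeks.

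Cd274 was higher 2 h after rechallenge of exposed YUMM2.1 cells at each week. After 1 week it stood at 22.1, 17.8 and 26.7 CPM at 2 h (47, 30 and 21 counts), against 1.51, 2.2 and 0 CPM without rechallenge. The log2 fold change was 3.70 ± 0.54 (adjusted p = 1.06e-05 from edgeR's test). After 2 weeks the samples stood at 21.5, 25.2 and 25.7 CPM against 4.54, 7.13 and 2.89 CPM, a log2 fold change of 2.37 ± 0.44 (adjusted p = 0.0013 from edgeR's test). After 3 weeks they stood at 25.2, 21.8 and 30.1 CPM against 4.85, 1.99 and 6.96 CPM, a log2 fold change of 2.63 ± 0.50 (adjusted p = 0.00113 from edgeR's test). In each week all 3 rechallenged samples lay above all 3 without rechallenge. Cd274 was 1 of 6 tested ligands called each time, where 0.615%, 0.428% and 1.08% of all genes passed. The call after 1 week was kept without each replicate in turn. That after 2 weeks was lost without replicate 1 or 3 (adjusted p = 0.0946 and 0.236), and that after 3 weeks without replicate 1 (adjusted p = 0.0885).

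At 24 h after rechallenge, Cd274 was called in YUMM2.1 after 1 week and not after 2 or 3 weeks, and these weeks were not tested against each other. After 1 week Cd274 was still at 14.3, 16.1 and 17.3 CPM, a log2 fold change of 3.25 ± 0.56 over cells without rechallenge (adjusted p = 0.000126 from edgeR's test), in 3 of 3 samples. It was 1 of 6 ligands called there, against 1.42% of all genes. After 2 weeks the samples were at 6.17, 5.90 and 16.3 CPM, of which 1 lay above all samples without rechallenge (log2 fold change 1.23 ± 0.47, adjusted p = 0.577 from edgeR's test). After 3 weeks they were at 3.48, 1.24 and 1.14 CPM, and 2 of 3 lay below all samples without rechallenge (log2 fold change -1.14 ± 0.69, adjusted p = 0.999 from edgeR's test). Neither tool called a ligand at 24 h after 2 or 3 weeks. With 6 tested, 1 had an unadjusted p below 0.05 each time (Cd274 and Pvr). Of all genes, 0.615% and 0% passed in these comparisons, the latter with 349 genes below an unadjusted p of 0.05 and 1 called by DESeq2. The 24 h group after 3 weeks was also the one with the highest mean sum of leukocyte markers in YUMM2.1 (15.9 CPM), while its mean Cd274 was 1.95 CPM, and the part of these markers in the Cd274 values was not tested.

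In CT26 cells exposed for 1 week, Cd274 was also higher after rechallenge. The samples stood at 11.2, 10.8 and 9.18 CPM at 2 h (16, 12 and 11 counts) and at 11.4, 11.2 and 4.25 CPM at 24 h (12, 15 and 5 counts). Without rechallenge the group held 1 count, so that the ratios were 25.9 (counting interval 4.38 to 1050) and 22.3 (3.72 to 907). Both passed, with adjusted p = 0.0149 and 0.0141 from edgeR's test, in 3 of 3 samples each. Cd274 was 1 of 4 ligands called in each, against 0.376% and 1.32% of all genes. The 2 h call was lost without replicate 1, 2 or 3 (log2 fold changes 6.65, 3.95 and 4.31 against 4.40, adjusted p = 0.248, 0.441 and 0.0578) and with DESeq2 (0.0524). The 24 h call was lost without replicate 1 or 2 (log2 fold changes 6.28 and 3.54 against 4.19, adjusted p = 0.189 and 0.319), and DESeq2 gave no adjusted p for it.

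After longer exposure the CT26 rechallenge comparisons started from higher mean levels, and these weeks were not tested against each other. After 2 weeks Cd274 stood at 4.43, 0.941 and 2.86 CPM without rechallenge, at 12, 6.11 and 12.8 CPM at 2 h and at 12.3, 10.0 and 15.3 CPM at 24 h. All 3 samples lay above those without rechallenge at both times. The log2 fold changes of 1.86 ± 0.57 and 2.14 ± 0.57 did not pass (adjusted p = 0.301 and 0.0691 from edgeR's test). The latter passed with no filter on low counts (0.0214) and when only the compared groups were fitted (0.0196). After 3 weeks Cd274 stood at 7.95, 14.3 and 22.9 CPM at 2 h and at 12.8, 10.1 and 7.87 CPM at 24 h, against 13.0, 7.82 and 3.31 CPM without rechallenge. These groups overlapped, with log2 fold changes of 0.63 ± 0.53 and 0.11 ± 0.55 (adjusted p = 0.903 and 1.00 from edgeR's test). In these 4 comparisons edgeR and DESeq2 called 0 of the 4 ligands. Below an unadjusted p of 0.05 there was 1 ligand at each time after 2 weeks (Cd274), 0 at 2 h after 3 weeks and 1 at 24 h after 3 weeks (Lgals9). Of all genes, 0.305% and 0.658% passed at 2 h and 24 h after 2 weeks, and 0.0117% and 0% after 3 weeks, where 442 genes were below an unadjusted p of 0.05 at 24 h and DESeq2 called 0.

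The responses to fresh IFNγ were compared directly between cells exposed for 3 weeks and naive cells. In CT26 the fitted 24 h response of Cd274 was smaller after 3 weeks. Naive cells went from 0 to 22 counts over their 3 samples, and cells exposed for 3 weeks from 23 to 30. The 24 h means were alike, at 10.8 ± 7.7 and 10.3 ± 2.49 CPM (SD), and the starting means were 0 and 8.06 ± 4.86 CPM. The difference of the responses was -6.49 ± 1.31 on the log2 scale (adjusted p = 0.00166 from edgeR's test). Its value depends on the prior count since the naive control was at 0, and without replicate 1 it did not pass (adjusted p = 0.236). Cd274 passed the filter in CT26 through its IFNγ groups, and with no filter the difference was called as well. The 3-week starting group held a shallow library, and its Irf1 was at 74.9 ± 16.9 CPM (SD). The 1-week and 2-week groups without rechallenge were at 28.2 ± 5.45 and 28.3 ± 7.93 CPM of Irf1. The part of this starting level in the difference was not tested. Cd274 was 1 of 4 ligands called, against 1.2% of all genes, of which 93 had a smaller response at 3 weeks and 9 a larger one. At 2 h the difference in CT26 was -4.06 ± 1.43 (adjusted p = 0.667 from edgeR's test), where both tools called 0 of 4 ligands, 1 was below an unadjusted p of 0.05 and 0.211% of all genes passed. In YUMM2.1 the differences of the responses were 0.39 ± 0.92 at 2 h (adjusted p = 0.974) and -2.28 ± 0.96 at 24 h (adjusted p = 0.646 from edgeR's test). Both tools called 0 of 6 ligands there, with 1 below an unadjusted p of 0.05 each time (Pvr and Cd274), against 0.115% and 0.615% of all genes.

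**Figure D3:**
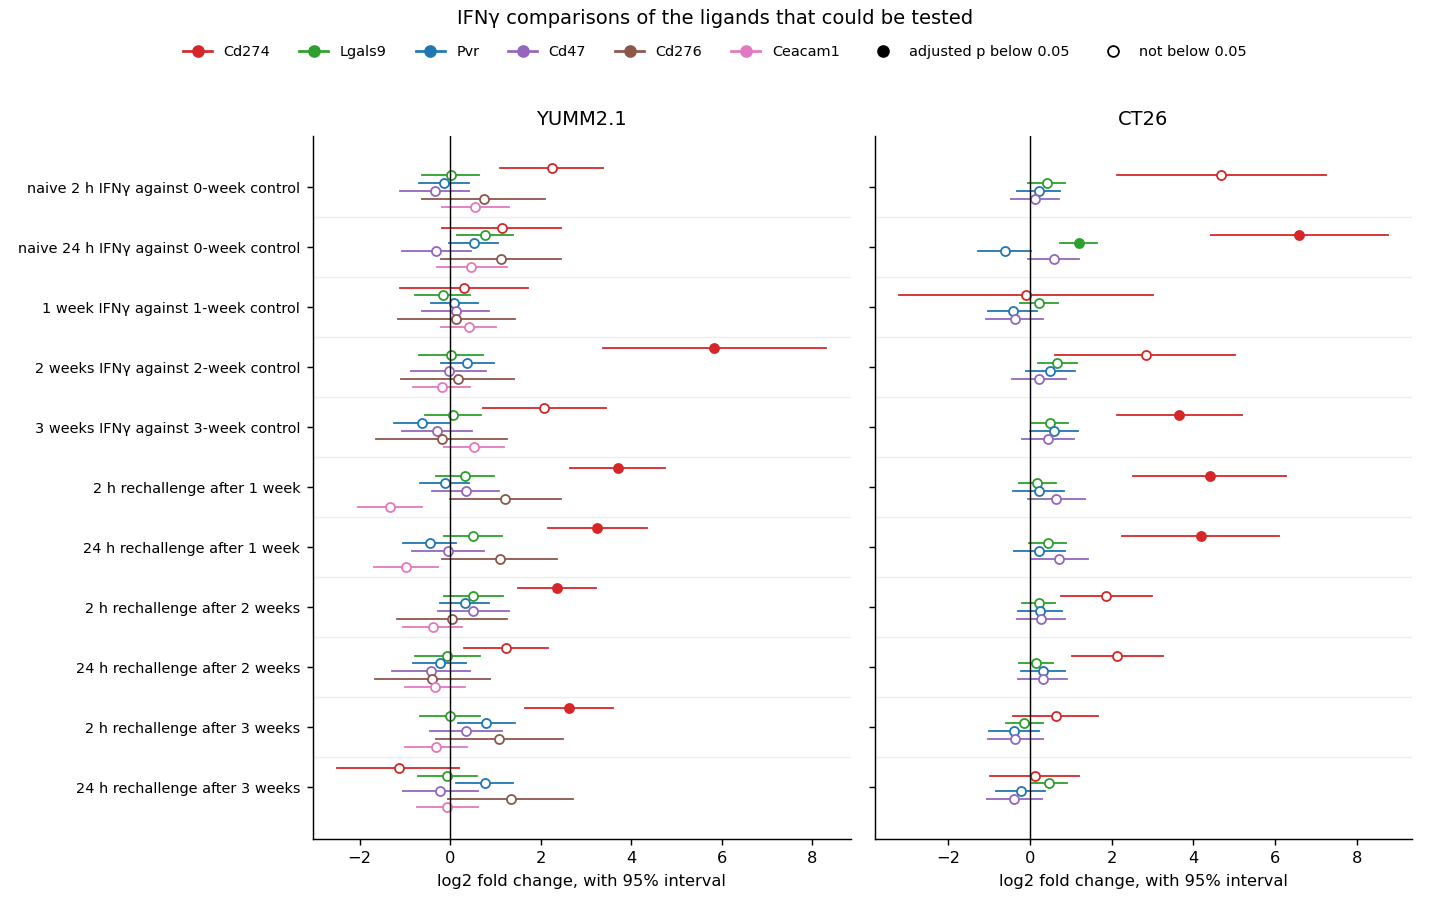
Log2 fold change of each tested ligand in the 11 IFNγ comparisons of YUMM2.1 and CT26, with 95% intervals; filled points had an adjusted p below 0.05 from edgeR's quasi-likelihood test. The filled points are Cd274 in 9 comparisons and Lgals9 once, at 24 h in naive CT26 cells, and the Cd274 values of 4.69, 5.84 and 6.60 are against control groups with no count, whose fitted size depends on the prior count.

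Ranked by mean level, the first 3 Cd274 groups in YUMM2.1 were the 2 h rechallenge groups of 3, 2 and 1 weeks (25.7 ± 4.13, 24.1 ± 2.33 and 22.2 ± 4.46 CPM, SD), followed by 24 h after 1 week (15.9 ± 1.54 CPM). Of the 14 pairs of neighbours in this order, 11 overlapped in their samples. The 3 pairs that did not overlap were 2 h and 24 h after 1 week, naive 2 h and 2 weeks without rechallenge, and the 3-week and 2-week controls, the last by less than 1 CPM. In CT26 the highest mean was 15 ± 7.49 CPM (2 h after 3 weeks), and all 14 pairs of neighbours overlapped. The 4 control groups and 1 week of IFNγ without rechallenge filled the last 5 places in CT26 (0 to 0.65 CPM). Groups farther apart in the CT26 order could still be separate: the samples of 1 week without rechallenge (0 to 0.707 CPM) lay below those 2 h after rechallenge (9.18 to 11.2 CPM).

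Genes with group means like those of Cd274 were listed for each line. Over the 15 group means of log2 CPM in YUMM2.1, the 5 highest Pearson correlations among the tested genes outside the 10 ligands were with Cxcl10 (0.95), Socs3 (0.93), Parp14 (0.93), Irf2 (0.92) and Gm7967 (0.92). In CT26 they were Gm4841 (0.97), Gm12185 (0.96), Batf2 (0.96), Gm4951 (0.95) and Tmem140 (0.95). The points share the scaling of their libraries and the same IFNγ schedule. By Spearman correlation, 2 of these 5 genes stayed in the list in YUMM2.1 and 1 of 5 in CT26. Icam1 was too low for such a list.

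Of the other B7 family ligands, Pdcd1lg2 (ENSMUSG00000016498.9; chromosome 19, 29410919 to 29471161, + strand), which lies beside Cd274, had 0 counts in all 45 YUMM2.1 samples, including the 33 given IFNγ, which allows a level of up to 0.0648 CPM in those. In CT26 it had 1 count in each of 4 samples, all with fresh IFNγ, or 0.103 CPM over the 33 IFNγ samples (counting interval 0.028 to 0.263), and 0 in the 12 controls, which allows up to 0.173 CPM. A response of PD-L2 was not detectable at this depth. Cd276 (ENSMUSG00000035914.11, B7-H3; chromosome 9, 58524298 to 58555437, - strand) had group means between 2.61 and 10.3 CPM in YUMM2.1. It was called in 0 of 14 YUMM2.1 comparisons, with log2 differences between -0.39 and 1.34 and a lowest adjusted p of 0.466 from edgeR's test. Their 95% intervals reached from -1.80 to 2.72, so that no single comparison resolved a change. Pooled over all YUMM2.1 samples it was at 4.28 CPM in controls (counting interval 3.48 to 5.21) and 7.23 CPM with IFNγ (6.48 to 8.05), intervals that do not overlap but cover counting error only. In CT26 it had 13 counts in the controls (0.75 CPM, 0.399 to 1.28) and 67 with IFNγ (1.72 CPM, 1.34 to 2.19) and was too low to be tested.

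The ligands of TIGIT and DNAM-1 were not called. Pvr (ENSMUSG00000040511.14; chromosome 7, 19903578 to 19921160, - strand) was detected in all 90 samples, with group means between 10.0 and 21.4 CPM in YUMM2.1 and between 11.2 and 26.5 CPM in CT26. It was called in 0 of 14 comparisons in each line, with lowest adjusted p of 0.283 and 0.241 from edgeR's test. In YUMM2.1 its log2 differences lay between -0.63 and 0.94, with intervals reaching from -1.24 to 1.78. In CT26 they lay between -0.62 and 0.59, with intervals from -1.41 to 1.27. After 3 weeks of IFNγ its point estimates had opposite signs, -0.63 ± 0.31 in YUMM2.1 and 0.59 ± 0.30 in CT26 (adjusted p = 0.475 and 0.241 from edgeR's test), and the difference between the lines, -1.27 ± 0.42, did not pass (adjusted p = 0.401). In YUMM2.1 all 3 IFNγ samples lay below all 3 controls, and in CT26 2 of 3 lay above them. These include the shallow replicate 3 of each line, at 10.4 CPM from 3 counts in YUMM2.1 and 39.8 CPM from 12 counts in CT26. Nectin2 (ENSMUSG00000062300.14; chromosome 7, 19716644 to 19750483, - strand) had at most 9 counts in a sample. Its pooled level was 0.994 CPM in YUMM2.1 controls (counting interval 0.63 to 1.49) and 1.45 with IFNγ (1.12 to 1.84), and 1.10 (0.66 to 1.71) and 1.29 (0.955 to 1.70) in CT26.

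Cd47 (ENSMUSG00000055447.19; chromosome 16, 49800533 to 49915010, + strand), whose product tells macrophages not to engulf a cell, was also present in all 90 samples and called in 0 of 14 comparisons in each line. Its group means ran from 9.32 to 26.1 CPM in YUMM2.1 and from 11.4 to 29.7 CPM in CT26. Its highest group mean in CT26, 29.7 ± 3.43 CPM (SD, n = 3), was at 24 h in naive cells, against 19.7 ± 2.89 CPM in the control. All 3 treated samples lay above the controls, and the log2 fold change of 0.58 ± 0.32 did not pass (adjusted p = 0.495 from edgeR's test). The lowest adjusted p of Cd47 over all comparisons was 0.779 (YUMM2.1) and 0.451 (CT26), and the 95% intervals reached from -1.28 to 1.80 and from -1.88 to 1.42.

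Lgals9 (ENSMUSG00000001123.15, galectin-9; chromosome 11, 78962974 to 78984946, - strand) was the other ligand called against a control, in CT26. In naive CT26 cells it stood at 24.6, 15.5 and 19.4 CPM in the controls, at 24.3, 32.9 and 21.8 CPM after 2 h of IFNγ and at 51.0, 40.4 and 44.9 CPM after 24 h. The 2 h samples overlapped the controls (log2 fold change 0.41 ± 0.23, adjusted p = 1.00 from edgeR's test). The 24 h samples all lay above them, with a log2 fold change of 1.19 ± 0.24 (adjusted p = 0.000727 from edgeR's test). This call was kept by DESeq2 and without each replicate in turn.

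During continuous exposure Lgals9 in CT26 lay above the control of the same week at 2 and 3 weeks without passing the test. At 2 weeks it stood at 21.2, 14.8 and 24.8 CPM in controls and at 38.1, 32.0 and 28.6 CPM with IFNγ (log2 fold change 0.66 ± 0.24, adjusted p = 0.217 from edgeR's test). At 3 weeks it stood at 26.0, 38.8 and 30.7 CPM and at 41.7, 46.9 and 46.4 CPM (0.48 ± 0.23, adjusted p = 0.194). In both weeks all 3 IFNγ samples lay above all 3 controls. The controls themselves went from 19.8 ± 4.56 CPM at 0 weeks to 31.8 ± 6.48 CPM at 3 weeks (SD, n = 3 each), a log2 fold change of 0.69 ± 0.22 (adjusted p = 0.149 from edgeR's test), and these groups did not overlap either. Its highest group mean was 61.7 ± 4.70 CPM (57.1 to 66.5), 24 h after rechallenge at 3 weeks, which was 0.47 ± 0.22 on the log2 scale above cells without rechallenge (adjusted p = 0.934 from edgeR's test). In this order of groups it was the only neighbour pair of 14 whose samples did not overlap, the next group being 24 h in naive cells at 45.5 ± 5.34 CPM.

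In YUMM2.1, Lgals9 was called in 0 of 14 comparisons. Its highest group mean was again at 24 h in naive cells, with 23.4, 20.3 and 24.8 CPM against 12.5, 15.7 and 12.8 CPM in the controls. All 3 samples lay above the controls, but the log2 fold change of 0.78 ± 0.32 did not pass (adjusted p = 0.54 from edgeR's test). The naive 24 h response of Lgals9 was 0.43 lower on the log2 scale in YUMM2.1 than in CT26 (log2 difference -0.43 ± 0.39), which did not pass (adjusted p = 0.821 from edgeR's test), with an interval from -1.19 to 0.33.

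The last 3 ligands had few counts or no call. Tnfrsf14 (ENSMUSG00000042333.16, HVEM; chromosome 4, 154921933 to 154928563, - strand) had 26 counts in all of YUMM2.1 and 65 in all of CT26. Its pooled level was 0.346 CPM in YUMM2.1 controls (counting interval 0.149 to 0.681) and 0.389 with IFNγ (0.23 to 0.614), and 0.75 (0.399 to 1.28) and 1.34 (0.999 to 1.75) in CT26. Icam1 (ENSMUSG00000037405.8; chromosome 9, 21015985 to 21028817, + strand), the adhesion ligand with the GAS match, had 16 counts in each line and at most 3 in a sample. Its pooled level was 0.216 CPM in YUMM2.1 controls (0.0702 to 0.504) and 0.237 with IFNγ (0.119 to 0.425), and 0.288 (0.0936 to 0.673) and 0.283 (0.141 to 0.506) in CT26. These intervals overlapped widely, and a response of Icam1 was not detectable at this depth.

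Ceacam1 (ENSMUSG00000074272.10; chromosome 7, 25461707 to 25477603, - strand) had group means between 6.00 and 18.8 CPM in YUMM2.1 and was called in 0 of 14 comparisons there. It has a close paralogue, Ceacam2, with which reads could be shared. Its lowest adjusted p was at 2 h after rechallenge of cells exposed for 1 week, where it stood at 6.59, 8.88 and 2.54 CPM against 20.1, 17.1 and 8.45 CPM without rechallenge. Of the 3 rechallenged samples, 2 lay below all samples without rechallenge, and the log2 fold change was -1.33 ± 0.36 (adjusted p = 0.0788 from edgeR's test). After 2 and 3 weeks the same comparison gave -0.38 ± 0.33 and -0.32 ± 0.35 (adjusted p = 1.00 and 0.775). In CT26 it held 30 counts in the 12 controls (1.73 CPM, counting interval 1.17 to 2.47) and 37 in the 33 samples given IFNγ (0.952 CPM, 0.67 to 1.31), and was too low to be tested.

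Time in culture without IFNγ moved none of the tested ligands past the threshold. Between the 3-week and the 0-week controls, edgeR and DESeq2 called 0 of 6 ligands in YUMM2.1 and 0 of 4 in CT26. In each line 1 had an unadjusted p below 0.05, Ceacam1 for YUMM2.1, with a log2 fold change of 0.78 ± 0.36 (adjusted p = 0.544 from edgeR's test), and Lgals9 for CT26. Of all genes, 0.511% and 0.904% passed. Cd274 held 7 counts in both YUMM2.1 groups, and 0 and 3 counts in CT26.

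The lines were compared at 0 weeks in 1 model of all 30 groups, in which 10339 genes and 6 of the ligands were tested. Before any IFNγ, 3 of the 6 ligands differed, and so did 46% of all genes. Cd274 had 7 counts in YUMM2.1 and 0 in CT26. Its pooled YUMM2.1 level was 2.61-fold the limit that 0 counts allow in CT26 (adjusted p = 0.0112 from edgeR's test). The call was lost without replicate 2 (0.0742) or 3 (0.077). Cd274 passed the filter of the joint model through IFNγ groups, and it was not tested when only these groups were fitted. Ceacam1 stood at 9.20, 3.63 and 5.75 CPM in YUMM2.1 and at 1.41, 0 and 0 CPM in CT26, a ratio of 16.2 (counting interval 4.10 to 140; adjusted p = 4.94e-05 from edgeR's test). It was too low to be tested within CT26 and passed the filter of the joint model through YUMM2.1 groups, where it was high. It was called with no filter on low counts and was not tested when only these groups were fitted. Lgals9 was lower in YUMM2.1, at 13.7 ± 1.82 CPM against 19.8 ± 4.56 CPM, a log2 difference of -0.74 ± 0.28 (adjusted p = 0.0252 from edgeR's test). This did not hold with library totals as the only scaling (0.0788), with no filter on low counts (0.0631), or without replicate 1 (0.305) or 3 (0.0738). Levels in CPM are scaled within each line. Cd276, Pvr and Cd47 were not called (log2 differences 0.97 ± 0.87, -0.36 ± 0.27 and -0.05 ± 0.35).

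The responses to IFNγ were not shown to differ between the lines for any of the 6 ligands. In the difference of the naive 24 h responses, edgeR and DESeq2 called 0 of 6, with 2 below an unadjusted p of 0.05 (Cd274 and Pvr), against 0.087% of all genes. For Cd274 the difference was -5.78 ± 1.53 on the log2 scale (adjusted p = 0.192 from edgeR's test), again with a control group at 0 on 1 side. In the difference of the 3-week responses against controls of the same age both tools called 0 of 6, with 1 below an unadjusted p of 0.05 (Pvr), against 0.106% of all genes, and for Cd274 the difference was -1.68 ± 1.17 (adjusted p = 0.885 from edgeR's test).

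A list of 39 further ligands of lymphocyte and myeloid receptors gave the background for these results. Of these, 13 passed the filter in YUMM2.1 and 9 did in CT26, and the others were too low, among them the costimulatory ligands Cd80 and Cd86, with at most 10 and 8 counts in a sample. In the 11 IFNγ comparisons 0 of 13 were called in YUMM2.1. In CT26 1 of 9 was called, in 1 comparison, where 7.28% of all genes passed. Lgals1, which encodes galectin-1, was lower after 3 weeks of IFNγ, at 17100 ± 1650 CPM against 21600 ± 787 CPM in the 3-week control (log2 fold change -0.34 ± 0.10, adjusted p = 0.0197 from edgeR's test). For naive cells at 24 h the list had a median log2 fold change of -0.17 (YUMM2.1) and 0.02 (CT26), against 0.02 and -0.02 over all genes. At 3 weeks it was -0.08 and -0.26, against 0.00 and 0.01. Between the 3-week and 0-week controls of YUMM2.1, Lgals3, named here after its values were seen, was higher at 3 weeks (log2 fold change 0.93 ± 0.15, adjusted p = 0.00015 from edgeR's test). Between the untreated lines, 11 of the 15 that could be tested differed, 6 higher and 5 lower in YUMM2.1, where 46% of all genes did.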

How the data were processed

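RNA of 90 samples was profiled by 3′ digital gene expression. The authors deposited raw counts per Ensembl gene, quantified with Salmon 0.13.1 against mm10 per the submitters' processing notes. The annotation release, strand setting and any use of molecular identifiers are not given in the sources used here. The authors state that a few samples, more from CT26 than from YUMM2.1, were discarded as outliers before their later analyses. They do not name them, so all were kept here, and samples they judged outliers may be among them. Of 53697 identifiers, 53668 matched a symbol. The 10 ligands and all other lists were chosen with earlier results of these data known. The further ligands named by rule are those called at 24 h in naive cells or at 3 weeks (Cd80, Cd86 and Lgals3 were named after their values were seen), and the likeness list holds the 5 highest correlations.

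Each line was fitted over its 15 groups with edgeR 4.0.16 in R 4.3.3 (filterByExpr, TMM scaling, quasi-likelihood test), and both lines together over 30 groups for differences between them. Benjamini-Hochberg adjustment covered all tested genes, with a threshold of 0.05. The SE of a log2 fold change was derived from the fold change and the F statistic of its test. The 95% intervals of fold changes were built from that SE. Both are approximate and need not match the p-value, above all where a group held no count. CPM values were scaled by TMM within each line. Log CPM values in the likeness list and the check of replicate numbers had a prior count of 2. Fitted fold changes used edgeR's default prior count instead. Pooled levels used total counts and exact Poisson intervals (95%). DESeq2 1.42.0, library totals, no filter, the compared groups only, a replicate term, and omission of replicates or shallow libraries were alternatives. The steps were tested on simulated data. No replicate files were identical.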

Additional observations from a re-analysis of the deposited data

Results flagged for a closer look

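The 24 h response of Cd274 in CT26 to fresh IFNγ differed between cells exposed for 3 weeks and naive cells by a test of the difference itself (log2 difference -6.49 ± 1.31, adjusted p = 0.00166, quasi-likelihood test of edgeR, n = 3 in each of the 4 groups). Naive cells went from 0 to 22 counts and exposed cells from 23 to 30, so the fitted size depends on the prior count. The 24 h means were 10.8 and 10.3 CPM, from starting means of 0 and 8.06 CPM. Without the shallow libraries the difference was -6.72 (adjusted p = 0.00137), and without replicate 1 it was -5.48 (adjusted p = 0.236).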

How the results depend on the processing

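The number of ligands called in each of the 31 comparisons was the same with the replicate block and without the shallow libraries. With library totals, and with no filter on low counts, it fell from 3 to 2 between the untreated lines, where Lgals9 was lost, and library totals moved no other count. Leaving out 1 replicate of every group moved it in 8 comparisons. In YUMM2.1 it went from 1 to between 0 and 0 at 2 weeks of IFNγ, and to between 0 and 1 at 2 h after 2 and after 3 weeks. In CT26 it went from 1 to between 0 and 1 at 3 weeks of IFNγ, at 24 h after 1 week and in the difference of the 24 h responses, and to between 0 and 0 at 2 h after 1 week. Between the untreated lines it went from 3 to between 1 and 2. DESeq2 called 0 ligands at 2 h after 1 week in CT26. With no filter on low counts 1 ligand, Cd274, was called at 24 h after 2 weeks in CT26. With only the compared groups fitted, Cd274 was not tested, so that 0 were called in YUMM2.1 at 2 weeks and in CT26 at 3 weeks and at 24 h after 1 week, 1 in CT26 at 24 h in naive cells and 1 between the untreated lines, where Ceacam1 was not tested either. In that setting 1 was called at 24 h after 2 weeks in CT26. Where fewer samples or genes were not the cause by construction, the cause was not tested.

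Values that were not called changed sign in 8 cases. For Cd274 the log2 fold change was -0.12 at 1 week in YUMM2.1 without replicate 1 (-0.12 to 0.96 over the 3 omissions), and -0.06 for the difference of the 2 h responses in YUMM2.1 without replicate 2. In CT26 at 1 week it was 0.19 without replicate 3 (-1.92 to 0.19) and 0.06 without the shallow libraries, and at 24 h after 3 weeks -0.04 without replicate 2 (-0.04 to 0.47) and -0.08 without the shallow libraries. For Lgals9 in CT26 it was -0.02 at 24 h after 2 weeks without replicate 3 (-0.02 to 0.37), and 0.06 at 2 h after 3 weeks without replicate 2 (-0.28 to 0.06). The replicate block changed none of the 31 counts and 48 of 48 fold changes kept their call. The median correlation of deviations between same-numbered samples was 0 in YUMM2.1 and 0.006 in CT26 over 315 pairs each. Of these pairs, 24 and 44 were above 0.1, and 13 and 21 of 45 samples correlated best with their own number of the 3. No strong pairing by number was seen, but the check cannot exclude a weak one, since the deviations also hold counting error. Of the mean levels under other scalings, 5 moved by more than 1 SD. With Cd274 at 47 counts or fewer in a sample, depth limits all values of the scarce ligands.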
